A study of Mus musculus with 9 samples.

Results

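The 48 genes described here encode proteins that hepatocytes secrete into plasma: 13 procoagulant and contact factors, 9 anticoagulants, inhibitors and proteins of fibrinolysis, 17 complement proteins, and 9 carriers and inter-alpha-trypsin inhibitor heavy chains. They were taken by symbol from a list of such proteins, and all 48 were found among the 54532 genes of the deposited table. RNA was sequenced from primary mouse hepatocytes in 9 libraries, 3 in each of 3 groups. CKO Tu cells came from COX-2fl/fl/Alb-Cre+ mice, in which the albumin promoter drives Cre recombinase in hepatocytes, and were given tunicamycin. WT Tu cells were given the same agent and came from Cre-negative littermates (COX-2fl/fl/Alb-Cre-), which also carry the floxed COX-2 alleles. WT DMSO cells came from mice of that WT genotype and were given the vehicle. The mice are described as male, of C57BL/6 background and matched for age, with no age stated. After 2 hours in 1% serum all cells were kept for 24 hours with DMSO or with 6 μmol/L tunicamycin. CKO cells with DMSO were not analysed here, so the genotypes are compared only under tunicamycin.

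Coagulation is a cascade of plasma proteases that ends with thrombin cutting fibrinogen into fibrin, and it is held in check by antithrombin, the protein C pathway and plasmin. Complement is a second cascade, in which the classical, lectin and alternative pathways meet at C3 and the terminal proteins C5 to C9 assemble a pore in target membranes. Hepatocytes make most of these proteins, and most receive N-linked sugars while they fold in the endoplasmic reticulum (ER). Some, such as albumin, do not. Tunicamycin blocks the first step of that glycosylation and is used to cause ER stress. COX-2, encoded by Ptgs2, makes prostaglandin precursors. Values below are RNA levels in FPKM, a count of fragments divided by gene length and by library size, so they say nothing of protein. RNA of whole cultures was measured, so fewer cells of a type and less RNA per cell cannot be told apart.

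The libraries held between 14897358 and 16001484 fragments assigned to genes. The 7 hepatocyte markers, of which Alb and Ttr are members, were abundant in all 9 libraries, with a summed level of 13500 to 14400 FPKM in CKO Tu, 15700 to 17100 in WT Tu and 15900 to 17600 in WT DMSO. Most of this is Alb. The other 6 summed to 3470 to 3770 FPKM in CKO Tu, 2080 to 2280 in WT Tu and 2330 to 2670 in WT DMSO. Of the 7, 5 were higher and 1 lower in CKO Tu against WT Tu at a limma adjusted p below 0.05. This is 85.7% of the 7, against 38.3% of all genes tested. The 9 endothelial markers summed to 3.49 to 4.04 FPKM in CKO Tu, 4.76 to 5.9 in WT Tu and 11.2 to 11.8 in WT DMSO. The 11 Kupffer cell markers summed to 92.7 to 107 FPKM in CKO Tu, 96.9 to 115 in WT Tu and 75.3 to 93 in WT DMSO, with the defining markers Vsig4 at 0 in all 9 libraries and Marco, C1qb and C1qc at 0 in all Tu libraries. Cd68 made up nearly all of this sum, and the other 10 summed to 0.411 to 0.641 FPKM in CKO Tu, 0.411 to 0.751 in WT Tu and 2.32 to 3.14 in WT DMSO. The 7 stellate markers summed to 1.78 to 2.23 FPKM in CKO Tu, 0.357 to 0.574 in WT Tu and 0.254 to 0.472 in WT DMSO, and Col1a1 was at 0 in all CKO Tu libraries. Without Reln the other 6 summed to 0.12 to 0.178 FPKM in CKO Tu, 0.28 to 0.419 in WT Tu and 0.13 to 0.339 in WT DMSO. The 5 cholangiocyte markers summed to 34.3 to 38.3 FPKM in CKO Tu, 22.8 to 24.3 in WT Tu and 22.7 to 25.9 in WT DMSO. Spp1 and Sox9 made up most of this sum, while Epcam averaged 0.359 FPKM in CKO Tu, 0.722 in WT Tu and 0.642 in WT DMSO, and Krt19 averaged 0.487 FPKM in CKO Tu, 0.474 in WT Tu and 0.672 in WT DMSO. The 5 lymphocyte and neutrophil markers summed to 0.23 to 0.558 FPKM in CKO Tu, 0.269 to 0.93 in WT Tu and 0.635 to 0.941 in WT DMSO. WT Tu replicate 1 had the highest mitochondrial share of fragments, 6.87%, where replicates 2 and 3 of its group had 5.25% and 5.90%. Without it, 24 members were higher and 13 lower in CKO Tu against WT Tu at a limma adjusted p below 0.05, and 2 higher and 11 lower in WT Tu against WT DMSO. Ptgs2 had 1, 1 and 2 fragments in CKO Tu, 8, 5 and 5 in WT Tu and 0, 13 and 8 in WT DMSO, and the deleted exons are not stated, so its level checks the genotype poorly. Xist, made from the inactive X chromosome of female cells, had 0, 3 and 0 fragments in CKO Tu and 20659 to 33657 in each of the 6 WT libraries, and 4 Y-linked genes (Uty, Kdm5d, Ddx3y and Eif2s3y) together had 3633, 3489 and 3486 in CKO Tu and 0 in every WT library. This goes against the label of male mice for the WT libraries. Genotype and sex-linked transcription therefore cannot be told apart in any difference between CKO Tu and a WT group. The part that the non-hepatocyte cells play in the differences below was not tested.

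Setting WT Tu against WT DMSO addresses what tunicamycin does to these genes in WT hepatocytes. Most of the 48 genes moved little. The RNAs for complement C5 (Hc) and coagulation factor VII (F7) fell to 0.364 and 0.392 times their vehicle level, and the others changed by at most 0.62 on the log2 scale. Called means here a limma adjusted p below 0.05 on log2(FPKM + 1), with Benjamini-Hochberg adjustment over all 11858 tested genes. By that rule 3 of the 48 rose, 12 fell and 33 were not called. This is 31.2% of the members, against 33.6% of all genes tested (17.7% higher and 15.9% lower). The 48 changes had a median of -0.09 and ran between -1.32 and 0.46, against a median of 0 over all genes tested. WT Tu and WT DMSO libraries did not overlap for 20 members, against 46.7% of all genes tested. Those of Hc and F7 were the 2 called changes with a size of 1 or more, against 3.17% of all genes tested. Of all calls, 52.7% were rises, a share that became 42.2% with upper-quartile scaling, 31.4% with scaling to total fragments and 31.5% with scaling to fragments outside the members and mitochondria. Total-fragment scaling moved the median of all genes from -0.002 to -0.108 and gave 1 member higher and 18 lower. Without WT DMSO replicate 2, or without replicate 3, 7 members were called lower instead of 12.

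Setting CKO Tu against WT Tu addresses how the knockout cells differ under tunicamycin. Here 33 of the 48 were called. All terminal complement genes but C8g, the 3 fibrinogen chains, factor XI (F11), protein C (Proc) and fetuin-A (Ahsg) were higher in CKO Tu, while albumin (Alb), C3 and kininogen (Kng1) were lower. Of the 48 members, 24 rose, 9 fell and 15 were not called, which is 68.8% called against 38.3% of all genes tested (18.7% higher and 19.6% lower). The median change was 0.29, with a range of -0.67 to 3.47. For 38 members the CKO Tu and WT Tu libraries did not overlap, against 51.2% of all genes tested. In 9 members the called change reached 1 or more in log2 terms, against 3.69% of all genes tested. All 48 genes passed the filter on low values, an FPKM of 1 or more in 3 or more libraries. C6 passed it only through CKO Tu and Cfb only through WT DMSO, so a difference in these members was a condition of their being tested and no p is given for it. Without C6, 23 of 47 rose and 9 fell, with a median of 0.28.

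**Figure D1:**
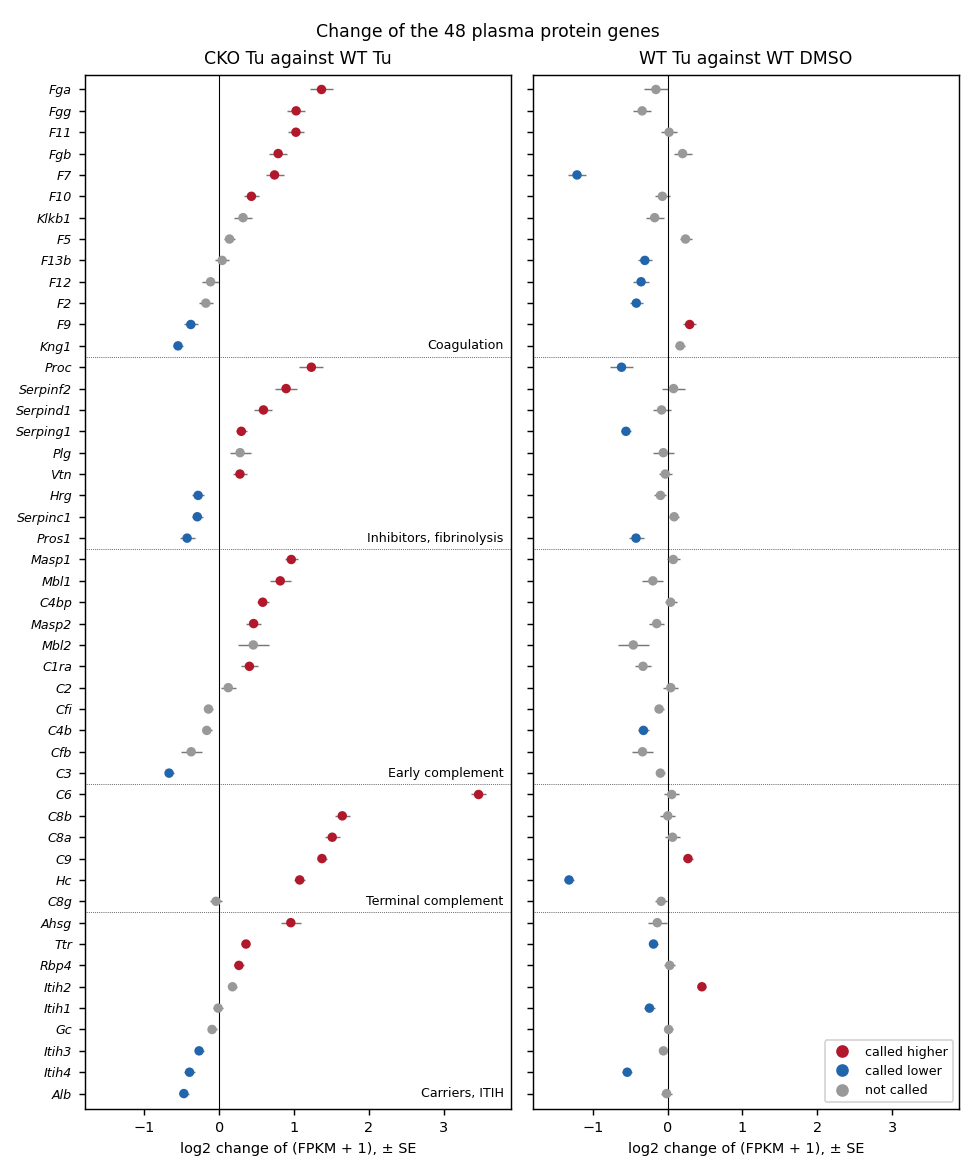
Change of each of the 48 genes on the log2(FPKM + 1) scale, CKO Tu minus WT Tu on the left and WT Tu minus WT DMSO on the right, grouped by role. Points are limma estimates, bars are standard errors, red and blue are calls and grey is not called; the largest estimates are the 3.47 of C6 on the left and the -1.32 of Hc on the right.

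Both comparisons use the WT Tu libraries, so a low or high value there enters both with opposite sign. CKO Tu was therefore also set against WT DMSO, a difference of genotype and treatment together. Of the 48 members 20 were higher and 18 lower in CKO Tu, or 79.2%, against 49.5% of all genes tested (25.3% higher and 24.2% lower). Without C6, 19 of 47 were higher and 18 lower, or 78.7% called. Cfb, which passed the filter only through WT DMSO, is among the 18. Of all calls in that comparison 51.1% were rises, and 39.4% with scaling to fragments outside the members and mitochondria. Whether replicates stem from separate mice is not stated, so every p-value measures the spread between these libraries only.

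Fibrinogen is the clot precursor and is built from 3 chains, alpha (Fga, ENSMUSG00000028001, chr3:83026076-83033627, plus strand), beta (Fgb, ENSMUSG00000033831, chr3:83040141-83049863, minus strand) and gamma (Fgg, ENSMUSG00000033860, chr3:83007724-83015049, plus strand), whose genes lie 11026 bases (Fgg to Fga) and 6513 bases (Fga to Fgb) apart on mm10 chromosome 3. The 3 promoters are shown because the genes moved together, from RefSeq on GRCm38.p6, 250 bases before to 50 bases after the start, 5′ to 3′ on the gene's strand. Capitals mark a match to the C/EBP motif TTGCNNAA on either strand, at bases -135 to -128 of Fga and -80 to -73 of Fgb.
Fga, chr3:83025903-83026202, plus strand: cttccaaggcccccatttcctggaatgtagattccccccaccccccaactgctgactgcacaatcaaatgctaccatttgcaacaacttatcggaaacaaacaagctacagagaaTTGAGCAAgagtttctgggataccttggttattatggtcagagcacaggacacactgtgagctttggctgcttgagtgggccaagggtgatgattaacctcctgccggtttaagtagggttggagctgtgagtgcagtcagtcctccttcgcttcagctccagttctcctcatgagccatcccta
Fgb, chr3:83049814-83050113, minus strand: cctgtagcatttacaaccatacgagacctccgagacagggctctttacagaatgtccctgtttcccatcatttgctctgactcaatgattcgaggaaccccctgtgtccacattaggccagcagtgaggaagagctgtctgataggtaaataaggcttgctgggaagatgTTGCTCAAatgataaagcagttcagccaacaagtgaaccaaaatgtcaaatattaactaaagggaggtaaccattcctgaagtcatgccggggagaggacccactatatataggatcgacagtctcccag
Fgg, chr3:83007474-83007773, plus strand: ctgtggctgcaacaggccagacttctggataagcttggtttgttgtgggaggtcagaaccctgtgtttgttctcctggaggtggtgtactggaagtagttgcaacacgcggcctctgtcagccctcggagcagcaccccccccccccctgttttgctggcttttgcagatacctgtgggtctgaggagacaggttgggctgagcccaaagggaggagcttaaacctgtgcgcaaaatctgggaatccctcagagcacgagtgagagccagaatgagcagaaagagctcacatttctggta
The Fgg window held no match. A match is a run of letters, not a measured binding site.

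All 3 fibrinogen chains were higher in CKO Tu than in WT Tu. Fga had 564, 523 and 466 FPKM in CKO Tu, 173, 209 and 220.2 FPKM in WT Tu, and 171, 252 and 257 FPKM in WT DMSO. Every CKO Tu library was more than 2 times as high as any WT Tu library, while the WT Tu and WT DMSO libraries overlapped. The Fga mean was 2.58 times as high in CKO Tu as in WT Tu, a log2 change of 1.37 ± 0.16 (SE; limma adjusted p = 0.00031). Fgb had 579.6, 556 and 507 FPKM in CKO Tu, 307, 315 and 328 FPKM in WT Tu, and 221, 304 and 311 FPKM in WT DMSO. CKO Tu again stood clear of the other 6 libraries, and WT DMSO replicate 1 was the lowest of all. Its change in CKO Tu against WT Tu was 0.79 ± 0.12 (SE; limma adjusted p = 0.0013). Fgg had 504, 479 and 428 FPKM in CKO Tu, 219, 232 and 239 FPKM in WT Tu, and 239.6, 313 and 329 FPKM in WT DMSO. CKO Tu was highest in each library and WT Tu lowest, with WT DMSO replicate 1 close to the WT Tu level. Fgg was 2.05 times as high in CKO Tu as in WT Tu (1.03 ± 0.12, SE; limma adjusted p = 0.00026). With tunicamycin in WT cells the changes were -0.16 ± 0.16 (SE; limma adjusted p = 0.49) for Fga, 0.20 ± 0.12 (SE; limma adjusted p = 0.24) for Fgb and -0.34 ± 0.12 (SE; limma adjusted p = 0.052) for Fgg, none of them called. Without WT DMSO replicate 1 the Fgg change was -0.48 and was called (limma adjusted p = 0.004, against 0.004 to 0.17 over all alternatives).

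**Figure D2:**
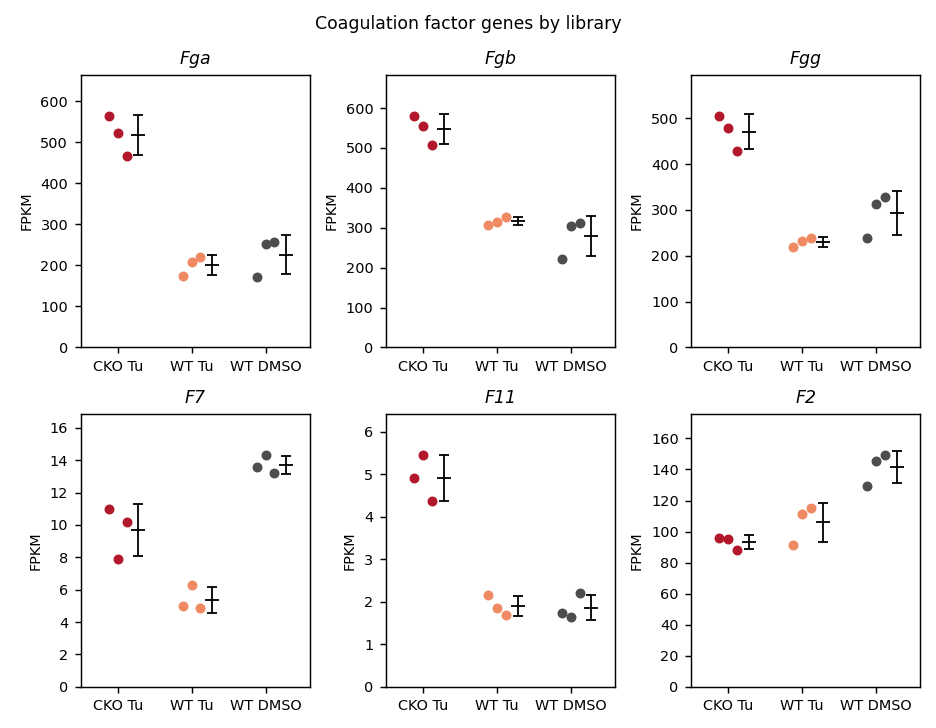
FPKM of 6 coagulation genes in the 3 libraries of CKO Tu, WT Tu and WT DMSO. Points are libraries and bars are the mean ± SD. All 3 CKO Tu points lie above every WT point for Fga, Fgb, Fgg and F11, and F7 is lowest in WT Tu.

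Among the clotting enzymes, F7 showed the largest response to tunicamycin. It encodes factor VII, which starts the extrinsic pathway (ENSMUSG00000031443, chr8:13026034-13035809, plus strand). F7 had 10.96, 7.88 and 10.2 FPKM in CKO Tu, 4.99, 6.29 and 4.85 FPKM in WT Tu, and 13.6, 14.3 and 13.2 FPKM in WT DMSO. The 3 groups did not overlap, with WT Tu lowest and WT DMSO highest. WT Tu had 0.392 times the WT DMSO mean (-1.21 ± 0.12, SE; limma adjusted p = 0.00012), and CKO Tu was higher than WT Tu by 0.74 ± 0.12 (SE; limma adjusted p = 0.0017). Its change in CKO Tu against WT DMSO was -0.47 ± 0.12 (SE; limma adjusted p = 0.011). F10, the gene for factor X, starts 1.5 kb beyond the end of F7. F10 had 46.7 to 52.8 FPKM in CKO Tu, 34.1 to 41.9 in WT Tu and 34.1 to 41.8 in WT DMSO. It was higher in CKO Tu (0.43 ± 0.10, SE; limma adjusted p = 0.01) and its change with tunicamycin in WT cells was -0.07 ± 0.10 (SE; limma adjusted p = 0.63).

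F2 encodes prothrombin, the precursor of thrombin. It had 96.1, 95.1 and 87.8 FPKM in CKO Tu, 91.5, 111 and 115 FPKM in WT Tu, and 129.7, 146 and 149 FPKM in WT DMSO. All WT DMSO libraries were above all others, and WT Tu replicate 1 lay within the CKO Tu range. F2 fell by 0.42 ± 0.09 (SE; limma adjusted p = 0.0089) in WT Tu against WT DMSO, and its CKO Tu minus WT Tu change was -0.18 ± 0.09 (SE; limma adjusted p = 0.16), which was called without WT Tu replicate 1 (-0.28, limma adjusted p = 0.012, with 0.012 to 0.4 over all alternatives). F9, the X-linked gene for factor IX, had 16.2, 14.2 and 14.6 FPKM in CKO Tu, 21.9, 18.1 and 19.6 FPKM in WT Tu, and 15.1, 17.4 and 15.5 FPKM in WT DMSO. It was the only procoagulant member that rose with tunicamycin, and its WT Tu libraries were above both other groups. F9 changed by 0.29 ± 0.09 (SE; limma adjusted p = 0.027) in WT Tu against WT DMSO and by -0.38 ± 0.09 (SE; limma adjusted p = 0.0079) in CKO Tu against WT Tu. The WT call did not hold without WT Tu replicate 1 or 3 or without WT DMSO replicate 1 or 3 (limma adjusted p = 0.061, 0.055, 0.085 and 0.083, with 0.018 to 0.25 over all alternatives), nor with the other 3 scalings tried.

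The intrinsic and contact factors did not move as a block. F11 encodes factor XI and had 4.902, 5.44 and 4.36 FPKM in CKO Tu, 2.16, 1.84 and 1.69 FPKM in WT Tu, and 1.74, 1.65 and 2.21 FPKM in WT DMSO. The CKO Tu libraries were all above 4 FPKM, and the WT groups overlapped at a lower level. F11 was 2.58 times as high in CKO Tu as in WT Tu (1.02 ± 0.11, SE; limma adjusted p = 0.00018), and its change with tunicamycin was 0.02 ± 0.11 (SE; limma adjusted p = 0.9). Kng1, which encodes kininogen, the source of bradykinin and a cofactor of the contact system, had 126, 119.9 and 123 FPKM in CKO Tu, 189.8, 169.8 and 183 FPKM in WT Tu, and 148, 167 and 167 FPKM in WT DMSO. The CKO Tu libraries lay below all others. Kng1 fell by 0.55 ± 0.07 (SE; limma adjusted p = 0.00031) in CKO Tu against WT Tu. Kng2 is a close copy of Kng1, at 26.8 ± 0.42 FPKM in CKO Tu, 45.7 ± 4.03 in WT Tu and 38.2 ± 0.931 in WT DMSO (SD, n = 3 each), so the split of fragments between them is uncertain.

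F12 encodes factor XII, which opens the contact pathway, and had 68.1, 70.1 and 67.9 FPKM in CKO Tu, 61.02, 80.5 and 84.3 FPKM in WT Tu, and 91.2, 95.5 and 100.4 FPKM in WT DMSO. The WT DMSO libraries were highest, and WT Tu replicate 1 was below every CKO Tu library. The F12 change with tunicamycin was -0.35 ± 0.11 (SE; limma adjusted p = 0.034). F13b, the carrier subunit of the fibrin-crosslinking factor XIII, had 5.45, 4.97 and 4.64 FPKM in CKO Tu, 4.996, 4.52 and 5.06 FPKM in WT Tu, and 5.500, 6.23 and 7.03 FPKM in WT DMSO. WT Tu lay below WT DMSO in all libraries and overlapped with CKO Tu. Its change with tunicamycin was -0.30 ± 0.09 (SE; limma adjusted p = 0.03). The calls of F12 and F13b were lost in 9 and 6 of 20 alternatives, with adjusted p of 0.01 to 0.1 and 0.006 to 0.1 in limma. For F12 these include leaving out any CKO Tu or any WT DMSO library (0.051 to 0.1), and for F13b leaving out WT Tu replicate 2 or WT DMSO replicate 2 or 3 (0.088, 0.075 and 0.1). In CKO Tu against WT Tu, F12 changed by -0.12 ± 0.11 (SE; limma adjusted p = 0.43) and F13b by 0.04 ± 0.09 (SE; limma adjusted p = 0.77). Without WT Tu replicate 1 the F12 change there was -0.26 and was called (limma adjusted p = 0.0042, with 0.0042 to 0.86 over all alternatives).

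The remaining procoagulant members were F5, the cofactor of factor X, and Klkb1, plasma prekallikrein. F5 had 6.16 to 7.36 FPKM in CKO Tu, 5.94 to 6.39 in WT Tu and 4.51 to 5.53 in WT DMSO, with changes of 0.24 ± 0.08 (SE; limma adjusted p = 0.056) in WT Tu against WT DMSO and 0.14 ± 0.08 (SE; limma adjusted p = 0.23) in CKO Tu against WT Tu. Klkb1 had 1.14 to 1.48 FPKM in CKO Tu, 0.654 to 1.06 in WT Tu and 0.968 to 1.21 in WT DMSO, with changes of -0.17 ± 0.12 (SE; limma adjusted p = 0.29) in WT Tu against WT DMSO and 0.32 ± 0.12 (SE; limma adjusted p = 0.06) in CKO Tu against WT Tu. Without WT DMSO replicate 3 the F5 change with tunicamycin was called (0.3, limma adjusted p = 0.047, with 0.035 to 0.25 over all alternatives), and without WT Tu replicate 3 so was Klkb1 in CKO Tu (0.4, limma adjusted p = 0.038, with 0.024 to 0.19). Klkb1 shares 43.2% of its exon bases with another annotated gene, so its level is uncertain. By role, 6 of the 13 procoagulant members rose and 2 fell in CKO Tu against WT Tu, with a median of 0.32, and 1 rose and 4 fell in WT Tu against WT DMSO, with a median of -0.16. These are 61.5% and 38.5% called, against 38.3% and 33.6% of all genes tested. With tunicamycin 2 fell without WT DMSO replicate 2 or 3, and 0 rose without WT Tu replicate 1 or 3 or WT DMSO replicate 1. In CKO Tu against WT Tu, 4 fell without WT Tu replicate 1.

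Proteins that restrain clotting were split in CKO Tu. Of the 9 anticoagulant, inhibitor and fibrinolysis members, 5 rose, 3 fell and 1 was not called in CKO Tu against WT Tu, with a median of 0.28. In WT Tu against WT DMSO 0 rose and 3 fell, with a median of -0.08. Called were 88.9% of the 9 in CKO Tu against WT Tu and 33.3% in WT Tu against WT DMSO. Over all genes tested these shares were 38.3% and 33.6%. Proc encodes protein C, a vitamin K-dependent protease that inactivates factors V and VIII. It had 54.9, 48.4 and 46.3 FPKM in CKO Tu, 15.4, 25.2 and 22.4 FPKM in WT Tu, and 28.8, 32.9 and 35.03 FPKM in WT DMSO. The groups did not overlap, with CKO Tu highest and WT Tu replicate 1 lowest of all. Proc fell by 0.62 ± 0.16 (SE; limma adjusted p = 0.018) in WT Tu against WT DMSO and was 2.37 times as high in CKO Tu as in WT Tu (1.23 ± 0.16, SE; limma adjusted p = 0.00051). The fall was not called without WT DMSO replicate 2 or 3 (limma adjusted p = 0.052 and 0.062, with 0.0043 to 0.062 over all alternatives).

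Pros1 encodes protein S, the cofactor of protein C, and moved otherwise. It had 1.34, 1.42 and 1.28 FPKM in CKO Tu, 1.93, 2.33 and 2.25 FPKM in WT Tu, and 2.72, 3.56 and 3.502 FPKM in WT DMSO. CKO Tu was lowest, WT Tu between and WT DMSO highest, with no overlap. Pros1 fell by 0.42 ± 0.10 (SE; limma adjusted p = 0.012) in WT Tu against WT DMSO and by 0.43 ± 0.10 (SE; limma adjusted p = 0.0095) in CKO Tu against WT Tu. Serpinc1 encodes antithrombin, the main inhibitor of thrombin and factor X. It had 55.2, 52.4 and 49.9 FPKM in CKO Tu, 64.2, 63.2 and 66.3 FPKM in WT Tu, and 55.2, 63.5 and 63.99 FPKM in WT DMSO. CKO Tu lay below WT Tu and reached into the range of WT DMSO. Its changes were 0.09 ± 0.07 (SE; limma adjusted p = 0.36) in WT Tu against WT DMSO and -0.29 ± 0.07 (SE; limma adjusted p = 0.0093) in CKO Tu against WT Tu. Serpinc1 shares 34.4% of its exon bases with Zbtb37 on the other strand, which had 0.922 to 1.67 FPKM over the 9 libraries. Serpind1, heparin cofactor II, another thrombin inhibitor, had 18.3, 17.1 and 15.5 FPKM in CKO Tu, 9.62, 12.1 and 11.1 FPKM in WT Tu, and 9.79, 13.04 and 12.2 FPKM in WT DMSO. All CKO Tu libraries were above all WT libraries, and it was higher in CKO Tu than in WT Tu by 0.59 ± 0.12 (SE; limma adjusted p = 0.0042).

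In fibrinolysis, Serpinf2 encodes alpha-2-antiplasmin, the inhibitor of plasmin. It had 63.7, 56.9 and 54.99 FPKM in CKO Tu, 26.5, 31.96 and 35.1 FPKM in WT Tu, and 22.9, 33.3 and 32.9 FPKM in WT DMSO. CKO Tu was clear of the WT groups, which overlapped, and the change against WT Tu was 0.89 ± 0.15 (SE; limma adjusted p = 0.002). Plg encodes plasminogen itself, with 61.1 to 70.5 FPKM in CKO Tu, 43.1 to 63.0 in WT Tu and 48.8 to 61.6 in WT DMSO, and its changes were 0.28 ± 0.14 (SE; limma adjusted p = 0.16) in CKO Tu against WT Tu and -0.06 ± 0.14 (SE; limma adjusted p = 0.79) in WT Tu against WT DMSO. Serping1 encodes C1 inhibitor, which restrains the contact system and the classical complement pathway. It had 107, 107 and 98.4 FPKM in CKO Tu, 83.6, 82.8 and 87.1 FPKM in WT Tu, and 113, 135 and 128 FPKM in WT DMSO. WT Tu was below both other groups in every library. Serping1 fell by 0.56 ± 0.07 (SE; limma adjusted p = 0.00049) in WT Tu against WT DMSO and was higher in CKO Tu than in WT Tu by 0.29 ± 0.07 (SE; limma adjusted p = 0.011).

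Hrg encodes histidine-rich glycoprotein, which binds heparin and plasminogen, and had 33.7, 34.8 and 32.5 FPKM in CKO Tu, 41.2, 41.3 and 41.00 FPKM in WT Tu, and 38.4, 45.8 and 48.7 FPKM in WT DMSO. The CKO Tu libraries were below all WT libraries. The change was -0.28 ± 0.08 (SE; limma adjusted p = 0.023) in CKO Tu against WT Tu and -0.10 ± 0.08 (SE; limma adjusted p = 0.4) in WT Tu against WT DMSO. Vtn encodes vitronectin, an adhesive protein of plasma and the extracellular matrix. It had 447 to 485 FPKM in CKO Tu, 336 to 416 in WT Tu and 359 to 413 in WT DMSO, and was higher in CKO Tu than in WT Tu by 0.28 ± 0.09 (SE; limma adjusted p = 0.043). Leaving out CKO Tu replicate 1, 2 or 3, WT Tu replicate 1 or WT DMSO replicate 2 or 3 ended the Vtn call (limma adjusted p = 0.13, 0.1, 0.066, 0.066, 0.058 and 0.057, with 0.017 to 0.13 over all alternatives). The Hrg call in CKO Tu ended without CKO Tu replicate 1 or 3 or WT Tu replicate 2 or 3 (limma adjusted p = 0.065, 0.075, 0.056 and 0.053, with 0.0033 to 0.075). Without WT DMSO replicate 1, Hrg was called lower with tunicamycin (-0.19, limma adjusted p = 0.035, with 0.035 to 0.85).

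**Figure D3:**
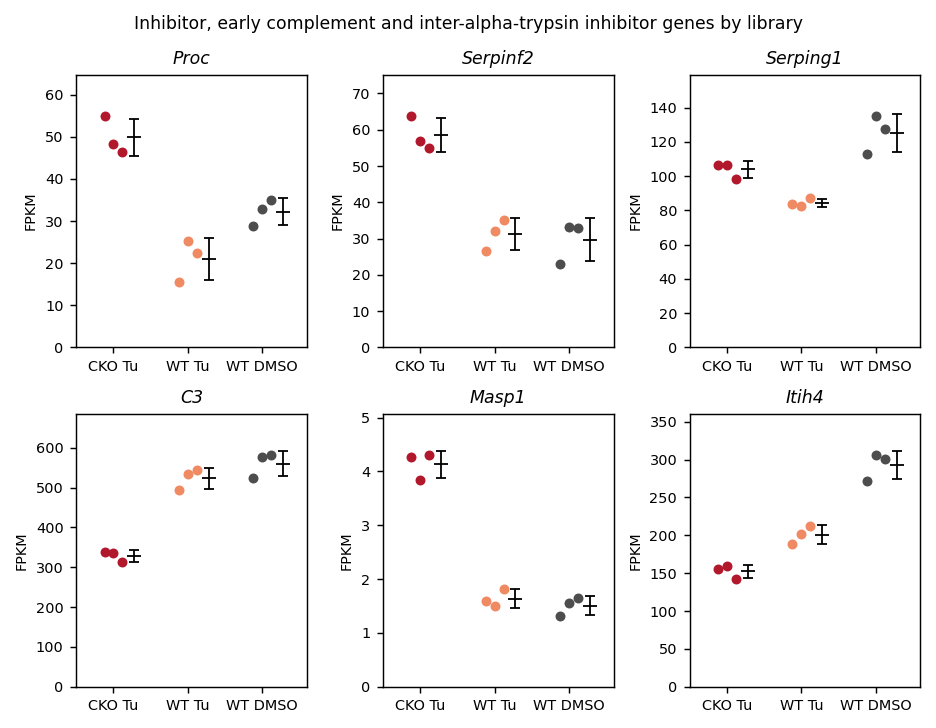
FPKM of Proc, Serpinf2, Serping1, C3, Masp1 and Itih4 in the 3 libraries of CKO Tu, WT Tu and WT DMSO, with the mean ± SD. CKO Tu is highest for Proc, Serpinf2 and Masp1 and lowest for C3 and Itih4, and Serping1 is lowest in WT Tu.

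In the early part of complement, 3 of the 4 lectin pathway genes (Masp1, Masp2 and Mbl1, but not Mbl2) were higher and C3 was lower in CKO Tu. Of these 11 members 5 rose, 1 fell and 5 were not called in CKO Tu against WT Tu, with a median of 0.40. In WT Tu against WT DMSO 0 rose and 1 fell, with a median of -0.15, and 5 fell with scaling to total fragments. Without WT Tu replicate 3 or WT DMSO replicate 1, 4 and 2 fell there, and without WT Tu replicate 1, 3 fell in CKO Tu against WT Tu. With all libraries, 54.5% of the 11 were called in CKO Tu against WT Tu and 9.09% in WT Tu against WT DMSO. Over all genes tested these shares were 38.3% and 33.6%. C3, the protein on which the 3 pathways meet, had 337, 336 and 312 FPKM in CKO Tu, 494, 534 and 544 FPKM in WT Tu, and 523, 577 and 581 FPKM in WT DMSO. All CKO Tu libraries were below all WT libraries, and the WT groups overlapped. C3 fell by 0.67 ± 0.06 (SE; limma adjusted p = 0.00011) in CKO Tu against WT Tu, while its change with tunicamycin in WT cells was -0.10 ± 0.06 (SE; limma adjusted p = 0.28).

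Masp1 and Masp2 encode proteases that are activated when mannose-binding lectins bind sugars on microbes. Masp1 had 4.27, 3.84 and 4.297 FPKM in CKO Tu, 1.59, 1.49 and 1.83 FPKM in WT Tu, and 1.31, 1.55 and 1.66 FPKM in WT DMSO. The CKO Tu libraries were more than 2 times as high as any WT library, and the WT groups overlapped. Masp1 was 2.53 times as high in CKO Tu as in WT Tu (0.96 ± 0.09, SE; limma adjusted p = 8.2e-05). Masp2 had 8.61, 9.500 and 9.44 FPKM in CKO Tu, 5.67, 6.11 and 7.56 FPKM in WT Tu, and 6.75, 7.17 and 7.68 FPKM in WT DMSO. CKO Tu was again above every WT library, and the change against WT Tu was 0.46 ± 0.10 (SE; limma adjusted p = 0.0057). Masp2 shares 54.9% of its exon bases with Tardbp on the other strand, a gene at 33.7 to 36.4 FPKM in CKO Tu, 45.0 to 48.3 in WT Tu and 49.7 to 54.8 in WT DMSO, so its level is uncertain. Without WT Tu replicate 3 the Masp2 change with tunicamycin was called (-0.25, limma adjusted p = 0.042, with 0.042 to 0.59 over all alternatives).

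Mbl1 and Mbl2 encode the mannose-binding lectins. Mbl1 had 11.8, 11.9 and 9.403 FPKM in CKO Tu, 5.46, 5.46 and 6.51 FPKM in WT Tu, and 5.31, 7.11 and 8.23 FPKM in WT DMSO. CKO Tu lay above both WT groups, and Mbl1 rose by 0.81 ± 0.14 (SE; limma adjusted p = 0.0025) against WT Tu. Mbl2 had 67.8 to 74.1 FPKM in CKO Tu, 34.3 to 65.7 in WT Tu and 61.6 to 77.8 in WT DMSO, with WT Tu replicate 1 the lowest. Its changes were 0.45 ± 0.21 (SE; limma adjusted p = 0.12) in CKO Tu against WT Tu and -0.46 ± 0.21 (SE; limma adjusted p = 0.12) in WT Tu against WT DMSO. Without WT Tu replicate 3 both Mbl2 changes were called, at 0.64 in CKO Tu against WT Tu (limma adjusted p = 0.04, with 0.04 to 0.24 over all alternatives) and at -0.64 in WT Tu against WT DMSO (limma adjusted p = 0.041, with 0.041 to 0.28).

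C4bp encodes the C4b-binding protein, a brake on the classical and lectin pathways. It had 12.3, 11.99 and 11.3 FPKM in CKO Tu, 8.09, 7.401 and 7.31 FPKM in WT Tu, and 6.702, 8.22 and 7.23 FPKM in WT DMSO. All CKO Tu libraries were above all WT libraries, a change of 0.58 ± 0.08 (SE; limma adjusted p = 0.00058) against WT Tu. C4b encodes C4, which forms the C3-cleaving enzyme with C2, and had 49.4, 51.8 and 46.7 FPKM in CKO Tu, 50.3, 57.6 and 58.8 FPKM in WT Tu, and 68.5, 70.7 and 69.6 FPKM in WT DMSO. WT DMSO was highest in every library, and CKO Tu overlapped WT Tu. C4b fell by 0.32 ± 0.07 (SE; limma adjusted p = 0.0068) in WT Tu against WT DMSO, and its CKO Tu minus WT Tu change of -0.17 ± 0.07 (SE; limma adjusted p = 0.084) was called without WT Tu replicate 1 (-0.24, limma adjusted p = 0.0064, with 0.0064 to 0.28 over all alternatives). The near-identical copy C4a had 0.419 to 1.05 FPKM over the 9 libraries.

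C1ra, a protease that starts the classical pathway and whose close copy C1rb had at most 0.103 FPKM, had 14.5 to 15.5 FPKM in CKO Tu, 9.19 to 12.2 in WT Tu and 12.2 to 15.1 in WT DMSO. It was higher in CKO Tu than in WT Tu by 0.40 ± 0.11 (SE; limma adjusted p = 0.021), and its change in WT Tu against WT DMSO was -0.33 ± 0.11 (SE; limma adjusted p = 0.051). The first call ended without CKO Tu replicate 1 (limma adjusted p = 0.07, with 0.0091 to 0.07 over all alternatives), and the second change was called without WT Tu replicate 3 or WT DMSO replicate 1 (limma adjusted p = 0.038 and 0.024, with 0.016 to 0.15). The other early members, which were not called in either comparison, were Cfi, C2 and Cfb. Cfi encodes factor I, which cuts C3b and C4b, and had 82.4 to 89.6 FPKM in CKO Tu, 87.8 to 97.2 in WT Tu and 97.5 to 105 in WT DMSO. It changed by -0.14 ± 0.06 (SE; limma adjusted p = 0.095) in CKO Tu against WT Tu, called without WT Tu replicate 1 (-0.19, limma adjusted p = 0.02, with 0.02 to 0.33). C2 and Cfb encode the protease subunits of the C3-cleaving enzymes. C2 had 2.2 to 2.92 FPKM in CKO Tu, 1.99 to 2.32 in WT Tu and 1.93 to 2.27 in WT DMSO, with changes of 0.12 ± 0.10 (SE; limma adjusted p = 0.38) in CKO Tu against WT Tu and 0.04 ± 0.10 (SE; limma adjusted p = 0.78) in WT Tu against WT DMSO. Cfb had 0.279 to 0.655 FPKM in CKO Tu, 0.877 to 0.970 in WT Tu and 1.15 to 1.84 in WT DMSO, with no overlap, a change of -0.38 ± 0.14 (SE; limma adjusted p = 0.064) in CKO Tu against WT Tu and -0.34 ± 0.14 (SE) in WT Tu against WT DMSO. C2 and Cfb share 46.9% and 79.5% of their exon bases with other annotated genes, so their levels are uncertain.

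The terminal complement genes held the 3 largest rises of the 48 in CKO Tu against WT Tu (C6, C8b and C8a) and the largest fall with tunicamycin (Hc). They encode C5 (Hc), C6, the 3 chains of C8 (C8a, C8b and C8g) and C9, which assemble the membrane attack complex; C7 is not among the members. Promoters of Hc, C6 and C9 are shown because these genes stood for 3 patterns, a fall with tunicamycin, near absence from WT cells and a rise in CKO Tu, from RefSeq on GRCm38.p6 as above. Capitals mark the HNF1 motif, GTTAAT and ATT with 1 base between, at bases -78 to -69 of Hc and read on the other strand, and the C/EBP motif at bases -132 to -125 of C9.
Hc, chr2:35061363-35061662, minus strand: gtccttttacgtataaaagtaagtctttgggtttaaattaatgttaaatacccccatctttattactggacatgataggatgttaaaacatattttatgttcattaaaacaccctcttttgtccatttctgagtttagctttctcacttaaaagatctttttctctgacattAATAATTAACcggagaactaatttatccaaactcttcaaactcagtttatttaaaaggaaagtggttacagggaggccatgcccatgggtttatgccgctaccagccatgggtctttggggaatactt
C6, chr15:4726960-4727259, plus strand: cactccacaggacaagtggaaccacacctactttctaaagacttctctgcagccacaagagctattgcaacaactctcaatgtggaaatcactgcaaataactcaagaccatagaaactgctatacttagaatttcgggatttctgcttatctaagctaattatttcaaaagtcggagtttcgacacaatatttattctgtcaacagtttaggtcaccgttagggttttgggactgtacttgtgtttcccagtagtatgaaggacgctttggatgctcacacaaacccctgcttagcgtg
C9, chr15:6445096-6445395, plus strand: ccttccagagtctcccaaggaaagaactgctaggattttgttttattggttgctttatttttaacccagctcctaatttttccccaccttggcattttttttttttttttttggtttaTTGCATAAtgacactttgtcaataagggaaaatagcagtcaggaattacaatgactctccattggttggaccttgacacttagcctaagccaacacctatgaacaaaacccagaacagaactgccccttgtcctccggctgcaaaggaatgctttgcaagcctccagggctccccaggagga
Neither motif, nor the HNF4 motif CAAAGTCCA, was found in the C6 window.

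Hc (ENSMUSG00000026874, chr2:34983331-35061438, minus strand) encodes C5, whose cleavage starts the terminal pathway. It had 13.3, 13.4 and 12.8 FPKM in CKO Tu, 5.103, 6.05 and 6.04 FPKM in WT Tu, and 15.3, 16.6 and 15.4 FPKM in WT DMSO. WT Tu was lowest and WT DMSO highest, with no overlap between the 3 groups. The mean was 13.2 ± 0.294 FPKM in CKO Tu, 5.73 ± 0.546 in WT Tu and 15.8 ± 0.766 in WT DMSO (SD, n = 3 each). Hc thus fell to 0.364 times its vehicle level in WT cells (-1.32 ± 0.07, SE; limma adjusted p = 3e-06). CKO Tu had 2.29 times the WT Tu level (1.07 ± 0.07, SE; limma adjusted p = 1.3e-05). The change in CKO Tu against WT DMSO was -0.24 ± 0.07 (SE; limma adjusted p = 0.018), which was not called without CKO Tu replicate 3 or WT DMSO replicate 2 (limma adjusted p = 0.06 and 0.07, with 0.0029 to 0.07 over all alternatives).

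C6 (ENSMUSG00000022181, chr15:4727175-4814967, plus strand) was nearly absent from WT cells. It had 12.05, 9.83 and 10.6 FPKM in CKO Tu, 0.0988, 0.0893 and 0.01905 FPKM in WT Tu, and 0.0353, 0.0512 and 0 FPKM in WT DMSO. These are 1790 fragments over the 3 CKO Tu libraries, 11 over the WT Tu libraries and 5 over the WT DMSO libraries. Per library size, CKO Tu had 157 times as many as WT Tu (95% exact binomial interval 87.5 to 315) and 372 times as many as WT DMSO (159 to 1150), intervals that cover counting error only. WT Tu had 2.37 times the WT DMSO count, with an interval of 0.759 to 8.7 that includes 1. On the log2(FPKM + 1) scale the change in CKO Tu against WT Tu was 3.47 ± 0.10 (SE), which understates the ratio of so low a gene, and the tunicamycin change was 0.05 ± 0.10 (SE; limma adjusted p = 0.7).

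Of the 3 C8 chains, 2 rose in CKO Tu. C8a and C8b, on chromosome 4 with 11130 bases between them, encode the alpha and beta chains. C8a (chr4:104815679-104876398, minus strand) had 33.3, 32.8 and 30.7 FPKM in CKO Tu, 9.43, 10.97 and 11.8 FPKM in WT Tu, and 8.76, 10.8 and 11.05 FPKM in WT DMSO. CKO Tu stood clear of the WT groups, which overlapped. C8a was 3.01 times as high in CKO Tu as in WT Tu (1.51 ± 0.10, SE; limma adjusted p = 1.4e-05). C8b (chr4:104766317-104804548, plus strand) had 32.3, 28.8 and 30.4 FPKM in CKO Tu, 7.76, 10.3 and 9.37 FPKM in WT Tu, and 8.38, 9.77 and 9.09 FPKM in WT DMSO. It showed the same order, 3.34 times as high in CKO Tu as in WT Tu (1.64 ± 0.10, SE; limma adjusted p = 7.1e-06). Neither was called with tunicamycin, at 0.07 ± 0.10 (SE; limma adjusted p = 0.65) for C8a and 0.00 ± 0.10 (SE; limma adjusted p = 0.99) for C8b. C8g encodes the gamma chain, a lipocalin, and had 48.9 to 53.9 FPKM in CKO Tu, 47.5 to 57.7 in WT Tu and 52.0 to 58.9 in WT DMSO. The 3 groups overlapped, with changes of -0.04 ± 0.08 (SE; limma adjusted p = 0.71) in CKO Tu against WT Tu and -0.09 ± 0.08 (SE; limma adjusted p = 0.45) in WT Tu against WT DMSO.

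C9 (chr15:6445327-6498751, plus strand) encodes the subunit that polymerises into the pore. It had 60.00, 56.4 and 54.7 FPKM in CKO Tu, 23.5, 20.6 and 20.2 FPKM in WT Tu, and 17.4, 17.5 and 17.7 FPKM in WT DMSO. The 3 groups did not overlap, with CKO Tu highest and WT DMSO lowest. C9 was 2.66 times as high in CKO Tu as in WT Tu (1.37 ± 0.07, SE; limma adjusted p = 1.8e-06). It rose by 0.27 ± 0.07 (SE; limma adjusted p = 0.012) in WT Tu against WT DMSO, a call lost with both fragment scalings and with the GC trend removed (limma adjusted p = 0.0096 to 0.086 over all alternatives). In all, 5 of the 6 terminal members rose and 0 fell in CKO Tu against WT Tu, each rise being at least 1 on the log2 scale, with a median of 1.44. Without C6, which was tested only through its CKO Tu level, these are 4 of 5 and a median of 1.37. With tunicamycin in WT cells 1 rose and 1 fell, with a median of 0.03. Called were 83.3% of the 6 in CKO Tu against WT Tu, or 80% without C6, against 38.3% of all genes tested. For tunicamycin in WT cells the share of the 6 was 33.3%, against 33.6%. As background, activity of the terminal pathway in mouse serum is known to be lower in females than in males, and the CKO Tu and WT libraries differed in Xist and Y-linked transcripts as given above.

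**Figure D4:**
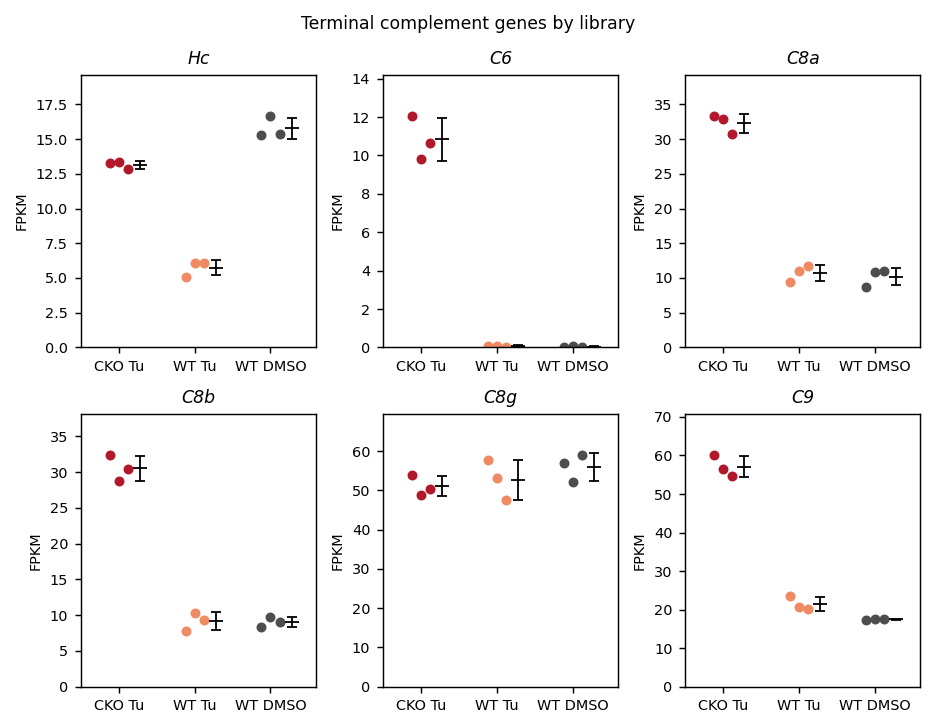
FPKM of the 6 terminal complement genes in the 3 libraries of CKO Tu, WT Tu and WT DMSO, with the mean ± SD. CKO Tu lies above both WT groups for C6, C8a, C8b and C9, Hc is lowest in WT Tu, and the groups overlap for C8g.

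Among the carriers, Alb was by far the most abundant member on the FPKM scale. It encodes albumin, the main plasma protein, and had 10603, 10159.5 and 10065 FPKM in CKO Tu, 14992, 13505 and 14334 FPKM in WT Tu, and 13548, 15037 and 14668 FPKM in WT DMSO. CKO Tu was below every WT library, and the WT groups overlapped. Alb fell by 0.47 ± 0.07 (SE; limma adjusted p = 0.0011) in CKO Tu against WT Tu, while its change in WT Tu against WT DMSO was -0.01 ± 0.07 (SE; limma adjusted p = 0.9). The call was lost with no filter on low values (limma adjusted p = 0.49, with 2.6e-05 to 0.49 over all alternatives). Ahsg encodes fetuin-A, which keeps calcium phosphate in solution, and had 822, 789 and 710.0 FPKM in CKO Tu, 333, 425 and 444 FPKM in WT Tu, and 371, 468 and 483 FPKM in WT DMSO. All CKO Tu libraries were above all WT libraries, and WT Tu replicate 1 was the lowest. Ahsg was 1.93 times as high in CKO Tu as in WT Tu (0.96 ± 0.13, SE; limma adjusted p = 7e-04). Its neighbour Hrg, 51.6 kb away on chromosome 16, was lower in CKO Tu.

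Ttr and Rbp4 encode transthyretin and retinol-binding protein, which travel together and carry thyroxine and vitamin A. Ttr had 2011, 1933 and 1899 FPKM in CKO Tu, 1509, 1465 and 1590.4 FPKM in WT Tu, and 1632, 1739 and 1836 FPKM in WT DMSO. CKO Tu was highest and WT Tu lowest in every library. The change was 0.36 ± 0.06 (SE; limma adjusted p = 0.0025) in CKO Tu against WT Tu and -0.19 ± 0.06 (SE; limma adjusted p = 0.047) in WT Tu against WT DMSO. The tunicamycin call was lost in 11 of 20 alternatives (limma adjusted p = 0.0041 to 0.38 over all alternatives), among them leaving out any CKO Tu library (0.064 to 0.075), WT Tu replicate 1 or 2 (0.058 and 0.12) or WT DMSO replicate 2 or 3 (0.11 and 0.17). Rbp4 had 1065, 1038 and 1046 FPKM in CKO Tu, 810.0, 897 and 922 FPKM in WT Tu, and 789, 883 and 908 FPKM in WT DMSO. CKO Tu lay above both WT groups, by 0.26 ± 0.07 (SE; limma adjusted p = 0.019) against WT Tu. That call was lost without CKO Tu replicate 1, 2 or 3 (limma adjusted p = 0.063, 0.051 and 0.051, with 0.0065 to 0.11 over all alternatives). Gc, the vitamin D-binding protein, had 1738 to 1760 FPKM in CKO Tu, 1786 to 2001 in WT Tu and 1830 to 1870 in WT DMSO, with changes of -0.10 ± 0.06 (SE; limma adjusted p = 0.22) in CKO Tu against WT Tu and 0.01 ± 0.06 (SE; limma adjusted p = 0.88) in WT Tu against WT DMSO.

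The inter-alpha-trypsin inhibitor heavy chains differed among themselves. Itih4, a family member that circulates without bikunin, the light chain, had 156, 159 and 142 FPKM in CKO Tu, 189, 202 and 213 FPKM in WT Tu, and 272, 305 and 301 FPKM in WT DMSO. CKO Tu was lowest and WT DMSO highest, with no overlap between groups. Itih4 fell by 0.54 ± 0.07 (SE; limma adjusted p = 0.00057) in WT Tu against WT DMSO and by 0.40 ± 0.07 (SE; limma adjusted p = 0.0027) in CKO Tu against WT Tu. Itih3, 6.22 kb from Itih4 on chromosome 14, had 116, 115 and 109 FPKM in CKO Tu, 131, 139 and 141 FPKM in WT Tu, and 133, 148 and 147 FPKM in WT DMSO. CKO Tu was below all WT libraries. Itih3 fell by 0.27 ± 0.06 (SE; limma adjusted p = 0.0074) in CKO Tu against WT Tu, and its tunicamycin change was -0.06 ± 0.06 (SE; limma adjusted p = 0.5). Itih1, 5.42 kb from Itih3, had 37.96, 36.2 and 35.7 FPKM in CKO Tu, 35.9, 36.6 and 38.5 FPKM in WT Tu, and 40.5, 48.04 and 43.7 FPKM in WT DMSO. WT DMSO was highest, and the Tu groups overlapped. Itih1 fell by 0.24 ± 0.07 (SE; limma adjusted p = 0.023) in WT Tu against WT DMSO, and changed by -0.01 ± 0.07 (SE; limma adjusted p = 0.89) in CKO Tu against WT Tu.

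Itih2, on chromosome 2, went the other way with tunicamycin. It had 123, 118 and 127 FPKM in CKO Tu, 113, 103 and 109.7 FPKM in WT Tu, and 73.6, 80.4 and 82.6 FPKM in WT DMSO. Both Tu groups were above all WT DMSO libraries. Itih2 rose by 0.46 ± 0.06 (SE; limma adjusted p = 0.00066) in WT Tu against WT DMSO, and its change in CKO Tu against WT Tu was 0.18 ± 0.06 (SE; limma adjusted p = 0.051), called without WT Tu replicate 1 or WT DMSO replicate 1 (limma adjusted p = 0.027 and 0.035, with 0.013 to 0.15 over all alternatives). The Itih1 call was lost without WT Tu replicate 2 or WT DMSO replicate 2 or 3 (limma adjusted p = 0.058, 0.075 and 0.061, with 0.0032 to 0.075 over all alternatives). Of the 9 carriers and heavy chains 3 rose and 3 fell in CKO Tu against WT Tu, with a median of -0.01, and 1 rose and 3 fell in WT Tu against WT DMSO, with a median of -0.06. Without WT Tu replicate 2 or WT DMSO replicate 2 or 3, 1 fell there. With all libraries, 66.7% of the 9 were called in CKO Tu against WT Tu and 44.4% in WT Tu against WT DMSO. Over all genes tested these shares were 38.3% and 33.6%.

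The members together held a smaller share of each library in CKO Tu than in the WT groups, and without Alb the order of the groups was another. All 48 genes took 4.57% ± 0.146 of the fragments in CKO Tu, 5.02% ± 0.107 in WT Tu and 5.67% ± 0.296 in WT DMSO (SD, n = 3 each). Alb alone took 2.43% ± 0.0682 in CKO Tu, 3.24% ± 0.112 in WT Tu and 3.58% ± 0.17 in WT DMSO. The other 47 took 2.14% ± 0.0826 in CKO Tu, 1.78% ± 0.0928 in WT Tu and 2.09% ± 0.131 in WT DMSO. The procoagulant members held 0.591% ± 0.0401 in CKO Tu, 0.363% ± 0.0251 in WT Tu and 0.42% ± 0.0553 in WT DMSO. Most of these fragments came from Fga, Fgb and Fgg, with 26573, 34585 and 16535 of 97699 in CKO Tu replicate 1. In WT Tu replicate 1 they had 7417, 16656 and 6512 of 50342, so this share does not describe the other procoagulant members. The terminal complement members held 0.0542% ± 0.00223 in CKO Tu, 0.0225% ± 0.000658 in WT Tu and 0.0305% ± 0.000611 in WT DMSO. Early complement held 0.248% ± 0.00932 in CKO Tu, 0.331% ± 0.0248 in WT Tu and 0.397% ± 0.0189 in WT DMSO. C3 made up most of this, with 27174 of 39486 fragments in CKO Tu replicate 1 and 36153 of 45487 in WT Tu replicate 1. The early complement share therefore does not describe the other early members. These shares divide by the fragment totals, whereas FPKM was scaled by other sizes. Those sizes were 1.005 to 1.01 times the totals in CKO Tu, 0.948 to 0.984 in WT Tu and 1.06 to 1.07 in WT DMSO. As a share of summed FPKM, Alb took 3.73% to 4.07% in WT Tu and 4.03% to 4.32% in WT DMSO, which overlap. All these shares are a description and carry no test.

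**Figure D5:**
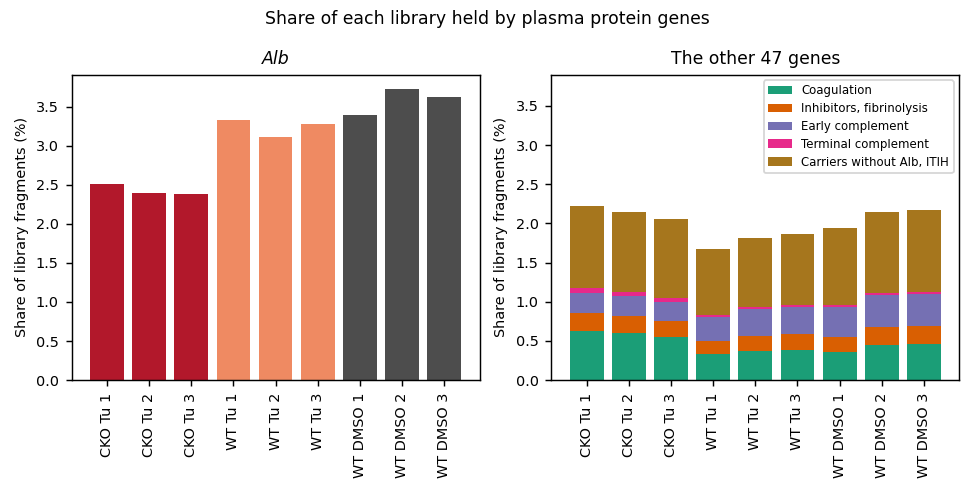
Share of each library's fragments held by Alb (left) and by the other 47 genes stacked by role (right), in %, for the 9 libraries. Alb holds 2.38% to 2.5% in CKO Tu, 3.11% to 3.33% in WT Tu and 3.4% to 3.73% in WT DMSO, while the other genes hold most in CKO Tu and WT DMSO.

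Some members lie next to each other in the genome. Each member was paired only with the next member on its chromosome. Of these pairs 10, formed by 17 members, had at most 100 kb between their genes on mm10. The fibrinogen, C8 and heavy chain pairs were among them. In CKO Tu against WT Tu the fibrinogen pairs, C8a with C8b and F7 with F10 were both higher, Hrg with Kng1 and Itih3 with Itih4 were both lower, and Ahsg with Hrg had opposite calls. In WT Tu against WT DMSO no such pair shared a called direction. Itih4 and Itih1, which have Itih3 between them and were not paired, were both called lower there. F7 and F10 were a pair in which F7 was called with tunicamycin and F10 was not.

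Promoters of 38 members were in the RefSeq table, 40 windows in all, since Rbp4 and C8g had 2 each. The C/EBP motif TTGCNNAA was found on either strand in 14 of the 40 (35%), against 10.8% of 32851 mouse promoters of the same length. The members with a match were Ahsg, Alb, C1ra, C3, C9, F11, F9, Fga, Fgb, Hrg, Itih2, Klkb1, Rbp4 and Serpinc1, which include genes called in each direction and not called. The HNF1 motif, GTTAAT and ATT with 1 base between, was found in C4bp, F13b, Gc and Hc, 4 of 40 windows (10%) against 0.399%. The HNF4 motif CAAAGTCCA was in 0 of 40 windows, against 0.475% of all promoters. The ER stress element of CCAAT and CCACG spaced by 9 bases was in 0 of 40 as well, against 0.119%. No member window held matches of different motifs.

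Liver transcription factors outside the set were counted in both comparisons. Of 14 on the list 12 were tested, 3 higher and 5 lower in WT Tu against WT DMSO and 6 higher and 0 lower in CKO Tu against WT Tu. These are 66.7% and 50% called, against 33.6% and 38.3% of all genes tested. Hnf4a, a nuclear receptor that maintains the hepatocyte state, had 19.8 ± 1.25 FPKM in CKO Tu, 6.43 ± 0.779 in WT Tu and 11.2 ± 0.981 in WT DMSO (SD, n = 3 each). Its change was 1.48 ± 0.09 (SE; limma adjusted p = 1e-05) in CKO Tu against WT Tu and -0.72 ± 0.09 (SE; limma adjusted p = 0.00052) in WT Tu against WT DMSO. Cebpa, which encodes C/EBP alpha, had 49.8 ± 2.65 FPKM in CKO Tu, 27.2 ± 5.44 in WT Tu and 61.7 ± 15.5 in WT DMSO. It was higher in CKO Tu than in WT Tu by 0.87 ± 0.18 (SE; limma adjusted p = 0.0059) and fell by 1.15 ± 0.18 (SE; limma adjusted p = 0.0016) in WT Tu against WT DMSO. Foxa2, a forkhead factor of the liver, fell by 0.72 ± 0.13 (SE; limma adjusted p = 0.0026) in WT Tu against WT DMSO, and Prox1, a homeobox factor, was higher in CKO Tu than in WT Tu by 0.60 ± 0.11 (SE; limma adjusted p = 0.0028).

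Cargo receptors that help proteins leave the ER were higher with tunicamycin. All 3 on the list rose in WT Tu against WT DMSO, with a median of 1.36, and all 3 fell in CKO Tu against WT Tu, with a median of -0.2. Of 3 genes of vitamin K-dependent carboxylation (Ggcx, Vkorc1 and Vkorc1l1), 2 rose and 0 fell with tunicamycin, and 0 rose and 0 fell in CKO Tu against WT Tu. Over all genes tested, 33.6% were called in WT Tu against WT DMSO and 38.3% in CKO Tu against WT Tu. Lman1 and Mcfd2, which in humans form the receptor that carries factors V and VIII out of the ER, rose by 1.43 ± 0.07 (SE; limma adjusted p = 1.2e-06) and 1.04 ± 0.05 (SE; limma adjusted p = 2.5e-06), and Surf4, another cargo receptor, by 1.36 ± 0.05 (SE; limma adjusted p = 5.4e-07). In CKO Tu against WT Tu they fell by 0.21 ± 0.05 (SE; limma adjusted p = 0.015) for Surf4, 0.20 ± 0.07 (SE; limma adjusted p = 0.039) for Lman1 and 0.15 ± 0.05 (SE; limma adjusted p = 0.049) for Mcfd2. Lman1 had 54.5 ± 1.24 FPKM in CKO Tu, 62.7 ± 0.846 in WT Tu and 22.7 ± 2.1 in WT DMSO (SD, n = 3 each).

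Other coagulation, complement and carrier genes outside the 48 were counted as well. Of 8 other coagulation genes tested, 1 rose and 1 fell in WT Tu against WT DMSO and 3 rose and 3 fell in CKO Tu against WT Tu. These are 25% and 75% called, against 33.6% and 38.3% of all genes tested. Plaur, the urokinase receptor, fell by 0.34 ± 0.10 (SE; limma adjusted p = 0.028) with tunicamycin and by 0.90 ± 0.10 (SE; limma adjusted p = 0.00022) in CKO Tu against WT Tu. Procr, the receptor of protein C, was higher in CKO Tu than in WT Tu by 0.66 ± 0.09 (SE; limma adjusted p = 0.00065). Of 4 other complement genes tested, 1 rose and 0 fell with tunicamycin, and 1 rose and 0 fell in CKO Tu against WT Tu. Each count is 25% called, against 33.6% and 38.3% of all genes tested. Cfp, properdin, rose by 0.35 ± 0.08 (SE; limma adjusted p = 0.0095) with tunicamycin, and C1s1, a partner protease of C1r, was higher in CKO Tu by 0.46 ± 0.07 (SE; limma adjusted p = 0.00099).

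Of 24 other plasma carriers and inhibitors tested, 0 rose and 7 fell in WT Tu against WT DMSO, with a median of -0.09, and 9 rose and 7 fell in CKO Tu against WT Tu, with a median of 0. These are 29.2% and 66.7% called, against 33.6% and 38.3% of all genes tested. The largest changes in CKO Tu were those of Serpina1e, an alpha-1-antitrypsin gene, by 5.0 ± 0.13 (SE; limma adjusted p = 4.2e-08), Serpina3k, a related serpin, by 1.98 ± 0.06 (SE; limma adjusted p = 6.2e-08), and Mug1, a murinoglobulin, by 1.22 ± 0.08 (SE; limma adjusted p = 1.4e-05). Serpina1e had 3854 ± 147 FPKM in CKO Tu, 120.04 ± 16.2 in WT Tu and 122 ± 19 in WT DMSO (SD, n = 3 each). These 3 genes belong to families of near-identical copies, so their single levels are uncertain. With tunicamycin, Azgp1, zinc-alpha-2-glycoprotein, changed by -0.78 ± 0.06 (SE; limma adjusted p = 2e-05), Lrg1, a leucine-rich glycoprotein, by -0.50 ± 0.12 (SE; limma adjusted p = 0.011), and Serpina6, the glucocorticoid carrier, by -0.33 ± 0.11 (SE; limma adjusted p = 0.049).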

How the data were processed

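RNA from 9 libraries of primary mouse hepatocytes was compared, 3 each of CKO Tu, WT Tu and WT DMSO, with groups taken from the labels. The authors deposited FPKM for 54532 genes. HISAT2 2.2.1, featureCounts 1.5.0-p3 and the build mm10 are named in the submitters' processing notes; the annotation release and strand setting are not given in the sources used here. FPKM times gene length fell on whole steps (100% within 0.001 fragments), from which fragments per gene were recovered, 14897358 to 16001484 in each library. The deposited values had been scaled by sizes that were 0.948 to 1.07 times those totals. These were 1.005 to 1.01 times in CKO Tu, 0.948 to 0.984 in WT Tu and 1.06 to 1.07 in WT DMSO, without overlap between groups.

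Genes with an FPKM of 1 or more in 3 or more libraries (11858) were fitted as log2(FPKM + 1) with limma 3.58.1 in R 4.3.3, using all 9 libraries, group means and an intensity trend. Tests were two-sided and adjusted over all tested genes in each comparison at 0.05. The pseudocount of 1 makes changes of low genes smaller than the ratio of means. Errors are SE for log2 changes and SD for FPKM and shares. Intervals on fragment ratios are 95% exact binomial, and cover counting error only, since duplicates were not marked.

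The members and all lists were chosen with earlier results of these data known. Values per library are given for up to 4 members a direction, role group and comparison that were called without overlap, and for Alb, F2, Fga, C3 and Serpinc1; of the other lists, up to 3 called genes a comparison are named. The steps were tested on simulated data. Alternatives were another pseudocount, filter, scaling, model or block, voom on the recovered fragments, removal of a GC trend, and leaving out each library. Exon overlap was read from GENCODE release 21 for mouse, whose coordinates 98.3% of the genes share. Promoters came from RefSeq, GRCm38.p6. Protein sequences were not analysed here, and 2 genes of the other lists are not reported here and were left out of their counts.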

Additional observations from a re-analysis of the deposited data

How the results depend on the processing

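Members were refitted under 20 alternatives in each comparison, where they passed the filter of the alternative. No change that was called in the main fit or in the alternative took the other sign. Some called members were called in every alternative in which they were tested. These were 8 of 15 in WT Tu against WT DMSO, 27 of 33 in CKO Tu against WT Tu and 30 of 38 in CKO Tu against WT DMSO. The CKO Tu counts include C6, and that against WT DMSO also includes Cfb. Of the members counted, F11, Pros1, Masp1 and Cfb failed the stricter filter, at an FPKM of 5, and were not tested with it. C6 was not tested when any CKO Tu library was left out, nor Cfb when any WT DMSO library was. The ranges given above over all alternatives likewise cover only those in which the gene was tested. With scaling to total fragments, 3121 genes and, with scaling to fragments outside the members and mitochondria, 3138 genes were called lower in WT Tu against WT DMSO, against 1882. With either, and with the GC trend removed, 1 member was called higher there, against 3. Leaving out 1 library at a time gave 2 to 3 members higher and 7 to 15 lower for WT Tu against WT DMSO. The same gave 20 to 26 higher and 8 to 13 lower for CKO Tu against WT Tu, and 17 to 22 higher and 13 to 18 lower for CKO Tu against WT DMSO. The cause of these shifts was not tested.

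The members' share of all fragments was 4.78% in CKO Tu, 5.34% in WT Tu and 5.98% in WT DMSO without mitochondrial fragments, and 5.57% in CKO Tu, 6.04% in WT Tu and 6.62% in WT DMSO as a share of summed FPKM; the order of the groups was the same. Role group counts changed by over 1.5 times, or to or from 0, in 41 cases. In 559 cases they changed by at most 1.5 times or not at all. The replicate numbers did not pair the samples, since the residuals of same-numbered libraries correlated at -0.0967 to 0.0208. With the number as a replicate block, 3 members were higher and 11 lower for WT Tu against WT DMSO. For CKO Tu against WT Tu the block gave 24 higher and 9 lower, and for CKO Tu against WT DMSO 20 higher and 16 lower. Voom on the recovered fragments called 4 higher and 14 lower for WT Tu against WT DMSO, with 26 and 10 for CKO Tu against WT Tu and 22 and 17 for CKO Tu against WT DMSO. Depth limits C6 most, which had 11 fragments over the WT Tu libraries and 5 over the WT DMSO libraries.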
